A study of Homo sapiens with 4 samples.

Results

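The JNK and p38 kinase pathway is described here through 10 of its genes, of 60617 gene IDs in the deposited table. The genes were chosen by name for their role, with earlier results of these data known, and found by Ensembl ID; the rule itself uses no measured value: the upstream kinase MAP3K5, the stress sensor GADD45A, the middle-tier kinases MAP2K3, MAP2K4, MAP2K6 and MAP2K7, and the terminal kinases MAPK8, MAPK9, MAPK13 and MAPK14. Messenger RNA was sequenced from T24 and 5637, established human bladder carcinoma cell lines, to ask how each responds to protodioscin, a steroidal saponin of plants such as yam and fenugreek. The groups were T24 given 60 µM protodioscin for 6 h, untreated T24, 5637 given 70 µM protodioscin for 6 h, and untreated 5637, with 1 library each. The doses follow the sample titles, since the treatment protocol gives the same figures in millimolar, and no vehicle is named for the untreated cells.

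JNK and p38 kinases are activated by stress and by inflammatory cytokines through a relay of 3 kinase tiers, in which a MAP3 kinase phosphorylates a MAP2 kinase, which then phosphorylates the terminal kinase. MAP2K4 and MAP2K7 act on JNK, and MAP2K3 and MAP2K6 act on p38, with MAP2K4 able to reach p38 as well. The terminal kinases phosphorylate transcription factors such as JUN and ATF2 and other kinases such as MAPKAPK2, and dual-specificity phosphatases switch them off. Their activity is set by phosphorylation, so transcript levels show how much of each component a cell encodes and not how active the pathway is.

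The terminal kinases are switched on by phosphorylation of a threonine and a tyrosine that flank 1 residue, which is proline in JNK and glycine in p38. The coding bases around this site are shown because the family that a gene belongs to is what the shares below compare. The 9 capital letters are the codons of threonine, the middle residue and tyrosine, read 5′ to 3′ on the coding strand from the longest protein-coding transcript of each gene in GENCODE 29 (GRCh38). MAPK11 and MAPK12, which encode the remaining p38 kinases, are included beside the members.
MAPK8 (chr10:48420242-48420277, plus strand, exon 5): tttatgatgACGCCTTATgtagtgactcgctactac
MAPK9 (chr5:180249016-180249051, minus strand, exon 6): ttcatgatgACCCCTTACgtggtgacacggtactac
MAPK14 (chr6:36075881-36075916, plus strand, exon 7): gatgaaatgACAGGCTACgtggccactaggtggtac
MAPK11 (chr22:50266980-50267015, minus strand, exon 7): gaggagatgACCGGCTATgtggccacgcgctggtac
MAPK12 (chr22:50256131-50256166, minus strand, exon 7): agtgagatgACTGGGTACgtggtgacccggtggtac
MAPK13 (chr6:36136689-36136724, plus strand, exon 7): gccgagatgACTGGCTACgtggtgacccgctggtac
The threonine is residue 183 in MAPK8, MAPK9 and MAPK12 and residue 180 in the others. Over the whole coding sequence, MAPK8 and MAPK9 were 75.2% identical, with a longest identical stretch of 29 bases. MAPK14 and MAPK13 were 63.7% identical, with a longest stretch of 20 bases. Those stretches are shorter than the 150-base reads.

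Gene-level values cannot show which splice form a line used. GENCODE 29 lists 16 transcripts for MAPK8, 13 for MAPK9, 10 for MAPK14 and 5 for MAPK13, and the deposited table has 1 value for each gene. The isoforms compared here are therefore the separate genes of each kinase family.

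Levels are given as FPKM, the fragments counted on a gene corrected for transcript length and library size. The FPKM sums were 322821 to 348577, and 11941 to 12405 genes reached 1 FPKM in a library. From the spacing of the lowest values, 1 read on a 1 kb transcript was worth 0.017 to 0.0246 FPKM, and relative depth ranged from 1.0 in untreated T24 to 1.45 in untreated 5637. The bladder epithelial keratin KRT7 was at 782 and 1073 FPKM in treated and untreated T24 and at 1089 and 1235 FPKM in treated and untreated 5637. The epithelial cadherin CDH1 and the basal keratin KRT5 were at or near 0 in T24. In treated and untreated 5637, CDH1 was at 72.3 and 69.6 FPKM and KRT5 at 283.5 and 331.1 FPKM. The uroplakin UPK2 was at 0.211 FPKM or less everywhere. The uroplakin UPK1B was at 0 in T24 and at 3.23 and 3.79 FPKM in treated and untreated 5637. GATA3 was at 14.5 to 17.6 FPKM in all 4 libraries. Of the leukocyte markers, PTPRC, CD3E and LYZ were below 0.1 FPKM in all 4 libraries, as were VWF of 4 endothelial markers and COL3A1, DCN, LUM and PDGFRA of 6 fibroblast markers. The summed level of the leukocyte list was 11.4 and 7.85 FPKM in treated and untreated T24, most of it CD68, and 1.92 and 1.74 FPKM in treated and untreated 5637. The endothelial list summed to 0.992 and 1.98 FPKM in treated and untreated T24, most of it CDH5, and to 0.123 and 0.171 FPKM in treated and untreated 5637. The fibroblast list summed to 0.870 and 0.924 FPKM in treated and untreated T24, and to 8.002 and 7.25 FPKM in treated and untreated 5637, most of it COL1A1 in both lines. The part of these cell types in the results was not tested. In bulk RNA, fewer expressing cells and less RNA per cell cannot be told apart.

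Transcripts of 9 of the 10 genes were present at more than 4 FPKM in every library, and MAP2K6 was below 1 FPKM in all 4. GADD45A had the highest level of the 10 in each library and MAP2K6 the lowest. MAP2K3, which activates p38, came next after GADD45A among the 10 in each library. FPKM is a level per length, so these values can be set side by side between genes.

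MAP3K5, also called ASK1, is a MAP3 kinase that is held inactive by thioredoxin and released by oxidative stress. MAP3K5 (ENSG00000197442, chromosome 6, 136557047 to 136792518, minus strand) was at 5.33 FPKM in treated and 5.01 FPKM in untreated T24, and at 5.56 FPKM in treated and 5.37 FPKM in untreated 5637. The 4 libraries lay close together, with the T24 libraries below the 5637 libraries by a small margin. Of the 12893 genes that reached 1 FPKM in 2 libraries or more, 83.3% had no overlap between the lines.

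GADD45A is a small stress-induced protein that binds and activates the MAP3 kinase MAP3K4, and its gene responds to p53 and to ATF4. GADD45A (ENSG00000116717, chromosome 1, 67685061 to 67688338, plus strand) was at 42.7 FPKM in treated and 51.1 FPKM in untreated T24, and at 28.8 FPKM in treated and 27.9 FPKM in untreated 5637. Both T24 libraries lay above both 5637 libraries, and the treated T24 library lay between untreated T24 and 5637. The lines also did not overlap in 83.3% of all genes that reached 1 FPKM in 2 libraries or more.

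MAP2K4 and MAP2K7 phosphorylate JNK, with a preference of MAP2K4 for the tyrosine and of MAP2K7 for the threonine of the site shown above. MAP2K4 (ENSG00000065559, chromosome 17, 12020824 to 12143830) was at 9.73 FPKM in treated and 9.30 FPKM in untreated T24, and at 7.20 FPKM in treated and 6.57 FPKM in untreated 5637. MAP2K7 (ENSG00000076984, chromosome 19, 7903843 to 7914478) was at 11.7 FPKM in treated and 11.1 FPKM in untreated T24, and at 15.7 FPKM in treated and 14.9 FPKM in untreated 5637. T24 had the higher MAP2K4 level and 5637 the higher MAP2K7 level, with no overlap between the lines in either gene. That is near the background, since 83.3% of all genes that reached 1 FPKM in 2 libraries or more had no overlap. The ratio of MAP2K7 to MAP2K4, which does not depend on how a library is scaled, was 1.2 in treated and 1.19 in untreated T24, and 2.18 in treated and 2.27 in untreated 5637.

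MAP2K3 and MAP2K6 are the dedicated activators of p38. MAP2K3 (ENSG00000034152, chromosome 17, 21284672 to 21315240) was at 16.3 FPKM in treated and 16.9 FPKM in untreated T24, and at 20.5 FPKM in treated and 20.8 FPKM in untreated 5637. MAP2K6 (ENSG00000108984, chromosome 17, 69414698 to 69553861) was at 0.405 FPKM in treated and 0.240 FPKM in untreated T24, and at 0.837 FPKM in treated and 0.811 FPKM in untreated 5637. MAP2K3 thus made up 97.6% and 98.6% of the summed FPKM of the pair in treated and untreated T24, and 96.1% and 96.2% in treated and untreated 5637. For MAP2K6 these levels correspond to about 21 and 10 reads per kilobase of transcript in treated and untreated T24, and to 40 and 48 in treated and untreated 5637. At that depth the T24 values are the least precise of the set, since the other 9 genes had 189 reads per kilobase or more.

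MAPK8 and MAPK9 encode JNK1 and JNK2, and MAPK10 encodes JNK3, a form best known from brain, heart and testis. MAPK8 (ENSG00000107643, chromosome 10, 48306639 to 48439360) was at 5.90 FPKM in treated and 5.35 FPKM in untreated T24, and at 6.48 FPKM in treated and 6.12 FPKM in untreated 5637. MAPK9 (ENSG00000050748, chromosome 5, 180233143 to 180292099) was at 13.6 FPKM in both T24 libraries, and at 19.2 FPKM in treated and 17.9 FPKM in untreated 5637. MAPK9 was above MAPK8 in every library, and MAPK10 was at 0.0472 and 0.0529 FPKM in treated and untreated T24 and at 0.276 and 0.363 FPKM in treated and untreated 5637. MAPK9 held 69.6% and 71.6% of the JNK sum in treated and untreated T24, and 74.0% and 73.4% in treated and untreated 5637. Both lines thus had the same order of JNK genes, with MAPK9 first and MAPK10 close to 0.

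MAPK14 encodes p38 alpha, the most widely expressed p38 kinase, and MAPK13 encodes p38 delta, a form of epithelia and secretory tissue. MAPK14 (ENSG00000112062, chromosome 6, 36027677 to 36111236) was at 13.9 FPKM in treated and 12.5 FPKM in untreated T24, and at 10.7 FPKM in treated and 9.79 FPKM in untreated 5637. MAPK13 (ENSG00000156711, chromosome 6, 36127809 to 36144524), its neighbour on the same strand, was at 4.62 FPKM in treated and 4.65 FPKM in untreated T24, and at 7.25 FPKM in treated and 7.46 FPKM in untreated 5637. MAPK14 was higher in T24 and MAPK13 higher in 5637, with no overlap between the lines. Of all genes that reached 1 FPKM in 2 libraries or more, 83.3% had no overlap either. The ratio of MAPK14 to MAPK13 was 3.0 in treated and 2.69 in untreated T24, and 1.48 in treated and 1.31 in untreated 5637.

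The remaining p38 genes also differed between the lines. MAPK11, which encodes p38 beta, was at 8.54 FPKM in treated and 7.86 FPKM in untreated T24, and at 3.01 FPKM in treated and 3.35 FPKM in untreated 5637. MAPK12, which encodes p38 gamma, was at 16.98 FPKM in treated and 23.06 FPKM in untreated T24, and at 9.57 FPKM in treated and 8.77 FPKM in untreated 5637. Both were higher in T24 than in 5637. MAPK12 shares exons on the same strand with the deacetylase gene HDAC10, and 25.9% of the 50-base windows of its transcripts also occur in HDAC10 transcripts, so its value is uncertain. HDAC10 was at 4.34 and 6.21 FPKM in treated and untreated T24, and at 3.37 and 2.95 FPKM in treated and untreated 5637.

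MAPK12 had the largest share of the p38 sum in T24, with 38.6% in treated and 48.0% in untreated cells, against 31.3% in treated and 29.9% in untreated 5637. MAPK14 had 31.5% and 26% in treated and untreated T24, and 35.1% and 33.3% in treated and untreated 5637, where it was the largest. MAPK13 had 10.5% and 9.66% in treated and untreated T24, and 23.7% and 25.4% in treated and untreated 5637. With MAPK12 left out, MAPK14 held 47.5% to 51.3% of the rest in all 4 libraries. The second place then went to MAPK11 in T24 (31.6% treated, 31.4% untreated) and to MAPK13 in 5637 (34.6% treated, 36.2% untreated).

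**Figure D1:**
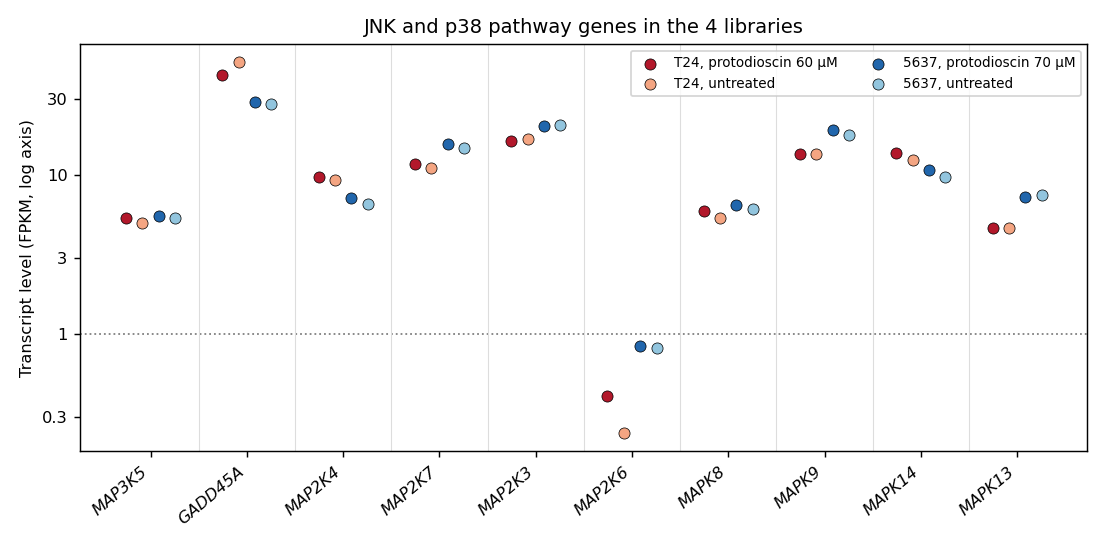
Transcript level in FPKM on a log axis for each of the 10 genes (horizontal), with 1 point for each of the 4 libraries and a dotted line at 1 FPKM. GADD45A had the highest points and MAP2K6 alone lay below the line, while treated and untreated points of a line stood close together for most genes.

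**Figure D2:**
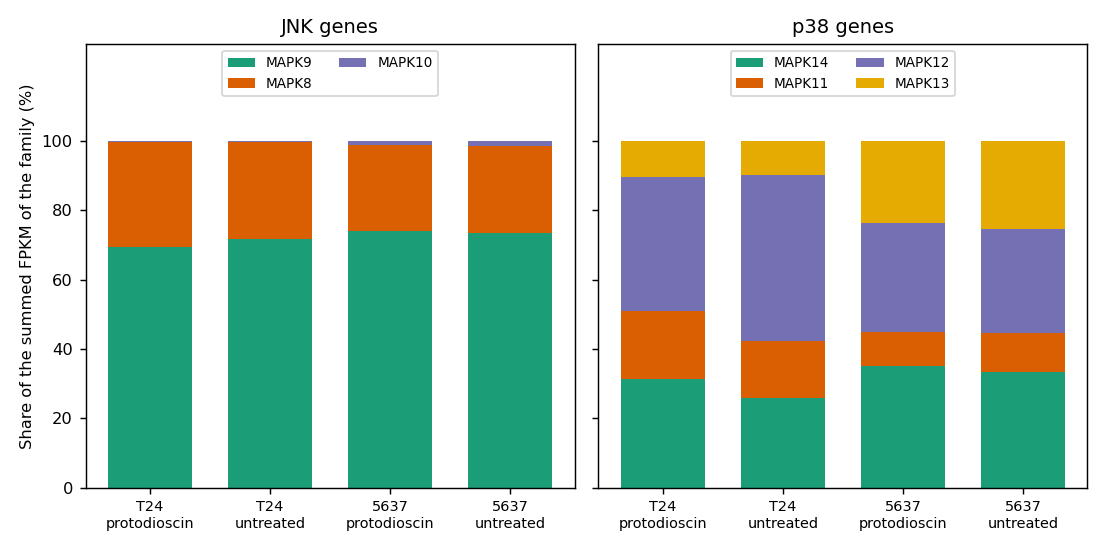
Share of the summed FPKM of the JNK genes (left) and of the p38 genes (right) in percent, with 1 bar for each library. MAPK9 held 69.6% to 74.0% of the JNK sum in all libraries, whereas the p38 bars of T24 held more MAPK11 and MAPK12 and less MAPK13 than those of 5637.

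No difference between protodioscin-treated and untreated cells reached 2-fold in the 9 genes that could be compared, in either line. Differences were taken on the log2(FPKM + 1) scale within a line, for genes that reached 1 FPKM in either library of that line. MAP2K6 did not reach that level, so 9 of the 10 genes were compared. In T24, 0 of 9 differed by 2-fold (a log2 difference of 1), where 0.484% of all 12193 genes compared did. In 5637 it was 0 of 9, where 0.388% of 12635 genes did.

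GADD45A in T24 had the largest difference of the 9, with a log2 difference of -0.25 between treated and untreated cells, and 16.1% of all genes compared in T24 differed by more. In 5637 its difference was 0.04, which was below 0 with median-ratio scaling. MAPK14 differed by 0.14 in T24 and 0.12 in 5637, MAPK8 by 0.12 and 0.07, and MAP2K4 by 0.06 and 0.12, all above 0 under each scaling tried. MAP2K7 differed by 0.07 in T24 and 0.07 in 5637. These are ratios of treated to untreated FPKM of 1.11 and 1.09 for MAPK14 and of 0.836 and 1.03 for GADD45A.

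MAPK13 (-0.01 in T24 and -0.04 in 5637), MAP2K3 (-0.05 and -0.02) and MAP3K5 (0.08 and 0.04) differed by less than 0.1 in both lines, and MAPK9 differed by 0.09 in 5637. With scaling to a common sum, MAPK9 and MAPK13 were above 0 in T24, and MAP3K5 was below 0 in 5637 with median-ratio and quantile scaling. MAP2K6, outside the comparison, had a log2 difference of 0.18 in T24 and 0.02 in 5637. Its ratio of treated to untreated FPKM was 1.69 in T24, the highest of the 10, at about 21 and 10 reads per kilobase in treated and untreated cells, and 1.03 in 5637.

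The median difference of the 9 genes was 0.059 in T24 and 0.071 in 5637, beside 0.025 and 0.043 over all genes compared. The median size of the difference, regardless of sign, was 0.072 in T24 and 0.071 in 5637, beside 0.112 and 0.109 over all genes. Of the 9, 5 were above 0 in T24, where 56.0% of all genes were, and 7 in 5637, where 61.5% were. With median-ratio scaling 5 of 9 were above 0 in 5637. These shares are near the background, and there is no replicate within a line against which to set them.

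**Figure D3:**
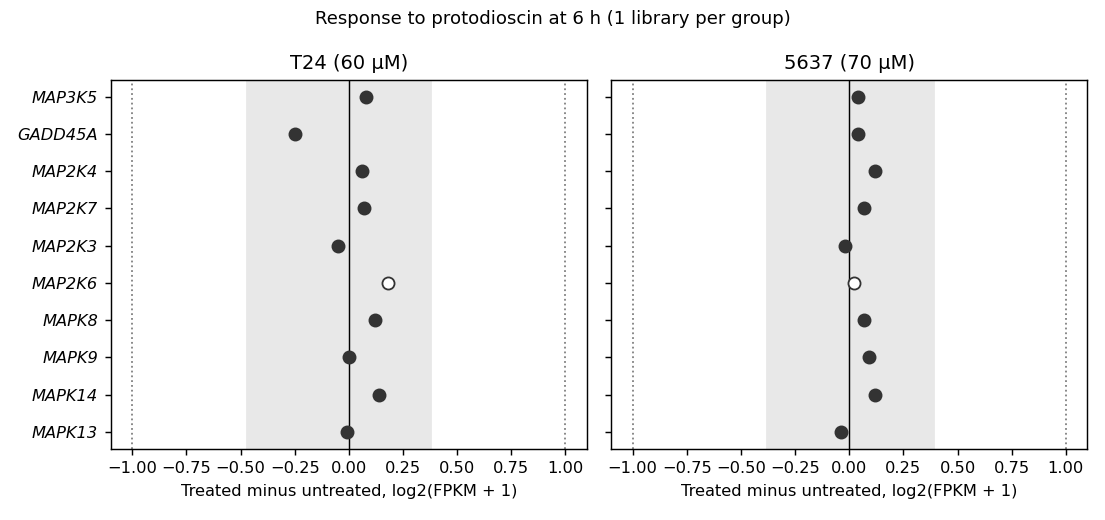
Treated minus untreated difference on the log2(FPKM + 1) scale (horizontal) for the 10 genes in T24 (left) and 5637 (right), 1 library per group, with grey bands over the central 95% of all genes compared, dotted lines at a 2-fold difference and an open circle for MAP2K6, below 1 FPKM. All points lie inside the bands, with GADD45A in T24 farthest from 0.

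The treatment effect over both lines was tested with limma on the 4 libraries together, modelling cell line and treatment, for the 12893 genes that reached 1 FPKM in 2 libraries or more. At a Benjamini-Hochberg adjusted p below 0.05, limma called 0 of the 9 genes and 0.0% of all genes. Without adjustment, 1227 genes (9.52% of those fitted) had a limma p below 0.05, and 0 of the 9 were among them. The lowest limma p of the set was that of MAPK14, with a log2 effect of 0.13 (SE 0.078, unadjusted p = 0.15, adjusted p = 0.619). GADD45A had an effect of -0.11 (SE 0.087, limma adjusted p = 0.701). The fit left 1 residual degree of freedom, made up of any difference in how T24 and 5637 responded, at doses that also differed.

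The lines themselves differed in 7 of the 9 genes fitted, near the background, since limma called 68.9% of all 12893 genes between the lines, 35.1% higher and 33.9% lower in T24. T24 had more GADD45A, MAP2K4 and MAPK14 transcript than 5637, and less MAPK13, MAPK9, MAP2K7 and MAP2K3. In the same limma fit, the T24 minus 5637 effect of GADD45A was 0.70 (SE 0.087, adjusted p = 0.000657) and that of MAPK13 was -0.57 (SE 0.092, adjusted p = 0.0021). MAP2K4 had 0.42 (limma adjusted p = 0.00582) and MAPK14 had 0.33 (adjusted p = 0.00952). MAPK9 had -0.42 (limma adjusted p = 0.00316), MAP2K7 had -0.39 (adjusted p = 0.00421) and MAP2K3 had -0.30 (adjusted p = 0.00979).

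MAPK8 and MAP3K5 did not pass, with effects of -0.14 (SE 0.092, limma adjusted p = 0.217) and -0.07 (SE 0.094, adjusted p = 0.541). The 7 genes passed under each alternative run, and without a filter on low values MAP2K6 was fitted too and lower in T24 (-0.47, SE 0.081, limma adjusted p = 0.0356). Both T24 libraries lay on 1 side of both 5637 libraries for all 9 genes, and so they did for 83.3% of all genes fitted. The treated and untreated library of a line stand in for replicates here. Nothing in the labels tells whether the cultures were independent, and the p-values then reflect only how these libraries vary, which may be technical.

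By size, the line differences of the 9 genes were near the background. None of the 9 genes differed by 2-fold between T24 and 5637 in treated cells, where 19.3% of all genes did, nor in untreated cells, where 19.8% did. The median size of the T24 minus 5637 difference was 0.388 in treated and 0.371 in untreated cells, beside 0.440 and 0.447 over all genes. In both treated and untreated cells 3 of the 9 were above 0, where 49.4% and 51.9% of all genes were, and with scaling to a common sum MAP3K5 also was in treated cells. GADD45A differed most in untreated cells (0.85, or 1.83 times the 5637 level), and in treated cells its difference was 0.55, equal in size to that of MAPK13 (-0.55). MAP2K6 was outside this comparison, being below 1 FPKM. Its ratio of T24 to 5637 FPKM was 0.484 in treated and 0.295 in untreated cells.

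**Figure D4:**
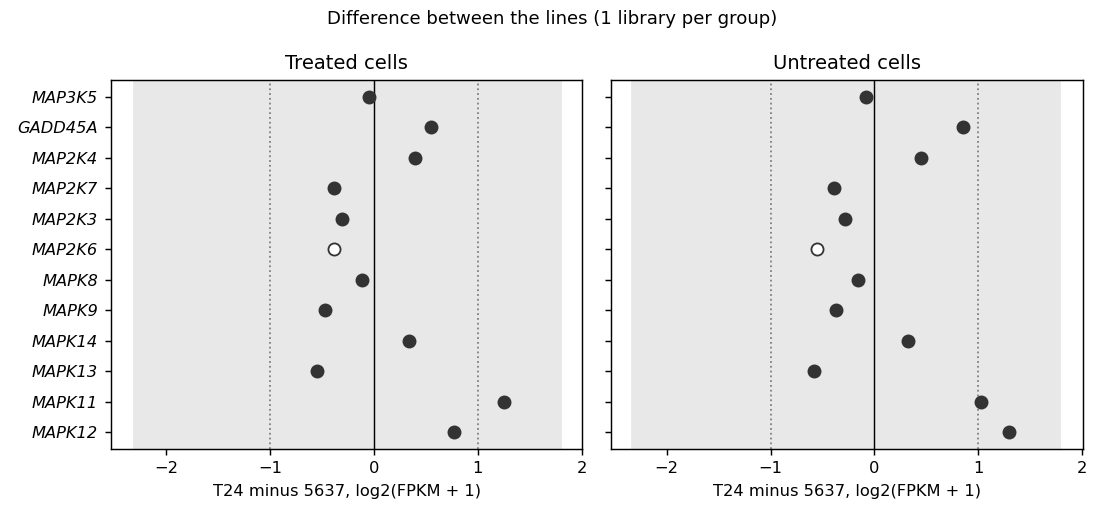
T24 minus 5637 difference on the log2(FPKM + 1) scale (horizontal) in treated (left) and untreated cells (right) for the 10 genes and the remaining p38 genes, 1 library per group, with grey bands over the central 95% of all genes compared, dotted lines at a 2-fold difference and an open circle for MAP2K6. MAPK11 and MAPK12 lie farthest to the right, with GADD45A at 0.55 in treated and 0.85 in untreated cells.

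Of the 10 genes, 7 share 50-base windows of their transcripts with other genes, from 0.445% of the windows in MAP2K6 to 6.82% in MAP2K7. By GENCODE 29, no other gene on the same strand overlaps their exons. MAP2K7 overlaps an unnamed gene on the opposite strand (ENSG00000268149), which was at 0.016 FPKM or less in all libraries, although libraries without strand cannot separate the pair. Of the 50-base windows of MAP2K4 transcripts, 4.6% also occur in the pseudogene MAP2K4P1, which was at 0.0309 FPKM or less. Some sharers were expressed. RUVBL1, at 49.4 to 57.2 FPKM, has 0.22% of the windows of MAP2K6, itself below 1 FPKM. ESYT2 (14.6 to 29.2 FPKM) has 0.283% of those of MAPK9, and ZNF215 (2.89 to 5.39 FPKM) 0.318% of those of MAPK13. The effect of this sharing on the values was not tested. MAPK14, MAP3K5 and GADD45A had no window in common with another gene.

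Over 4 libraries, the genes whose levels were most like those of GADD45A were POLR2G, a subunit of RNA polymerase II, TBC1D2, a RAB GTPase-activating protein, and E2F4, a repressive cell cycle transcription factor. Their Euclidean distances from GADD45A on the log2(FPKM + 1) scale were 0.102, 0.118 and 0.156. POLR2G was at 40.5 and 48.9 FPKM in treated and untreated T24, and at 28.6 and 27.4 FPKM in treated and untreated 5637. With 4 values for each gene, such likeness describes only these libraries.

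GADD45A differed in sign in T24 from the p53 targets set beside it. All 11 of those compared were above 0 in T24, with a median of 0.266, where 56.0% of all genes were, with a median of 0.025. In 5637 it was 9 of 11, with a median of 0.109, where 61.5% of all genes were, with a median of 0.043. CDKN1A, the cell cycle inhibitor and best-known p53 target, was at 54.2 FPKM in treated and 30.4 FPKM in untreated T24, and at 53.01 FPKM in treated and 56.93 FPKM in untreated 5637. RRM2B, a ribonucleotide reductase subunit, had a difference of 0.40 in T24 and 0.36 in 5637. BTG2, an antiproliferative p53 target, was at 0.796 and 0.682 FPKM in treated and untreated T24, and at 2.95 and 2.87 FPKM in treated and untreated 5637. The limma treatment effect called 0 of the 12 genes in this list, and 2 had an unadjusted p below 0.05, as did 9.52% of all genes.

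Among 11 ATF4-linked stress genes compared, 9 were above 0 in T24 (median 0.296) and 7 in 5637 (median 0.077), beside the same 56.0% and 61.5% of all genes, so the count in 5637 is near the background. ATF3, a transcription factor of the same response, had a difference of 0.50 in T24 and 0.77 in 5637. TRIB3, a pseudokinase induced by ATF4, was at 28.6 and 29.1 FPKM in treated and untreated T24, and at 6.32 and 6.60 FPKM in treated and untreated 5637. The limma treatment effect called 0 of 11, with 4 at an unadjusted p below 0.05, beside 9.52% of all genes. Of the other GADD45 genes, GADD45B was at 14.9 and 14.8 FPKM in treated and untreated T24 and at 13.1 and 10.7 FPKM in treated and untreated 5637, and GADD45G was at 0.115 FPKM or less throughout.

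Beyond the 10 genes, 78 others of the pathway were grouped by role into 8 lists, and 72 entered the limma fit. For treatment, limma called 0 of 72. An unadjusted limma p below 0.05 was reached by 7 above 0 and 4 below 0, beside 9.52% of all genes fitted. None differed by 2-fold with treatment, of 69 compared in T24 and 70 in 5637, where 0.484% and 0.388% of all genes did. Their median difference was 0.090 in T24 and -0.002 in 5637, beside 0.025 and 0.043 over all genes. Between the lines, limma called 50 of 72, of which 22 were higher and 28 lower in T24, again near the background of 68.9%.

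Among the upstream kinases, 16 of 17 other MAP3 kinases were fitted. Limma called 0 for treatment, with 1 at an unadjusted p below 0.05, beside 9.52% of all genes. Between the lines 4 were higher and 5 lower in T24, where 68.9% of all genes were called. MAP3K2 was at 8.46 and 6.63 FPKM in treated and untreated T24, and at 8.09 and 8.89 FPKM in treated and untreated 5637. MAP3K9, a mixed-lineage kinase, was at 5.11 and 5.50 FPKM in treated and untreated T24, and at 5.17 and 6.41 FPKM in treated and untreated 5637. MAP3K12, a kinase known from axon injury, was higher in T24 (limma line effect 1.06, adjusted p = 0.000291), but shares exons with the abundant gene PCBP2 on the opposite strand.

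Of the MAP4 kinases and small GTPases, 8 of 9 were fitted. For treatment 0 were called by limma, with 0 at an unadjusted p below 0.05, beside 9.52% of all genes. Between the lines 1 was higher and 3 lower in T24, where 68.9% of all genes were called. TNIK, a MAP4 kinase, was at 3.82 and 3.48 FPKM in treated and untreated T24, and at 2.67 and 4.25 FPKM in treated and untreated 5637. CDC42, a GTPase that activates MAP3 kinases, was at 63.0 and 55.2 FPKM in treated and untreated T24, and at 46.6 and 47.7 FPKM in treated and untreated 5637. MAP4K4 had a limma line effect of -0.48 (adjusted p = 0.000627). The line call for CDC42 (0.32, adjusted p = 0.0101) was lost without a filter on low values (limma adjusted p = 0.0634), and CDC42 shares exons on the same strand with the neighbour AL031281.2.

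All 13 scaffolds and adaptors were fitted. Limma called 0 for treatment, with 2 above and 2 below 0 at an unadjusted p below 0.05, beside 9.52% of all genes. Between the lines 4 were higher and 6 lower in T24, where 68.9% of all genes were called. MAPK8IP3, a scaffold that binds JNK and motor proteins, was at 8.90 and 12.4 FPKM in treated and untreated T24, and at 16.8 and 17.9 FPKM in treated and untreated 5637. ARRB2, a beta-arrestin that scaffolds MAP3K5 and JNK3, was at 19.2 and 16.2 FPKM in treated and untreated T24, and at 9.98 and 7.76 FPKM in treated and untreated 5637. FLNA, an actin-binding filamin, had a limma line effect of 1.54 (adjusted p = 8.46e-06).

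Of the 7 MAP3K regulators, 6 were fitted. For treatment 0 were called by limma, with 1 at an unadjusted p below 0.05, beside 9.52% of all genes. Between the lines 2 were higher and 3 lower in T24, where 68.9% of all genes were called. Thioredoxin (TXN), the inhibitor of MAP3K5, was at 137 and 136 FPKM in treated and untreated T24, and at 265 and 273 FPKM in treated and untreated 5637. TXN was named after its values were seen, for its action on MAP3K5. YWHAZ, a 14-3-3 protein, was at 447 and 333 FPKM in treated and untreated T24, and at 376.9 and 390.0 FPKM in treated and untreated 5637. CAB39, a scaffold of the kinase STK11, had a limma line effect of -1.0 (adjusted p = 9.1e-05). The line call for GADD45B (0.30, limma adjusted p = 0.0275) was lost without a filter on low values (adjusted p = 0.0995).

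Downstream of p38 and JNK, all 7 kinases and all 10 transcription factors of the lists were fitted. Limma called 0 of each for treatment, with 1 kinase and 2 transcription factors at an unadjusted p below 0.05, beside 9.52% of all genes. In T24, 1 kinase was higher and 4 lower than in 5637, and 5 transcription factors were higher and 1 lower. Over all genes, 68.9% were called between the lines. MAPKAPK3, a kinase activated by p38, had a limma line effect of -1.23 (adjusted p = 5.18e-05). MKNK1, a kinase of the translation factor eIF4E, had treated minus untreated differences of 0.25 in T24 and 0.18 in 5637, and shares exons with a neighbour. JUND, a member of the AP-1 family, was at 28.9 and 20.5 FPKM in treated and untreated T24, and at 9.82 and 8.17 FPKM in treated and untreated 5637. JUND was higher in T24 than in 5637 (limma line effect 1.35, adjusted p = 4.97e-05), and its treatment effect of 0.36 had an adjusted p of 0.482.

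Of 10 phosphatases compared from the pathway lists, 4 in treated and 3 in untreated cells differed by 2-fold between the lines, where 19.3% and 19.8% of all genes did. The list has 12 phosphatases, of which 10 were fitted. For treatment 0 were called by limma, with 2 at an unadjusted p below 0.05, both below 0, beside 9.52% of all genes. Between the lines 3 were higher and 6 lower in T24, where 68.9% of all genes were called. DUSP1, which dephosphorylates p38 and JNK, was at 46.7 FPKM in treated and 67.4 FPKM in untreated T24, and at 5.26 FPKM in treated and 4.19 FPKM in untreated 5637 (limma line effect 3.32, adjusted p = 2.33e-05). DUSP4 was at 15.6 and 22.9 FPKM in treated and untreated T24, against 93.3 and 116 FPKM in treated and untreated 5637 (limma line effect -2.40, adjusted p = 3.56e-06). DUSP10, which prefers p38 and JNK, was at 1.46 and 1.97 FPKM in treated and untreated T24, and at 14.0 and 16.6 FPKM in treated and untreated 5637 (limma line effect -2.59, adjusted p = 5.44e-06). DUSP10 was named after its values were seen. The median size of the T24 minus 5637 difference over the phosphatases compared was 0.751 in treated and 0.784 in untreated cells, beside 0.388 and 0.371 for the members and 0.440 and 0.447 over all genes.

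**Figure D5:**
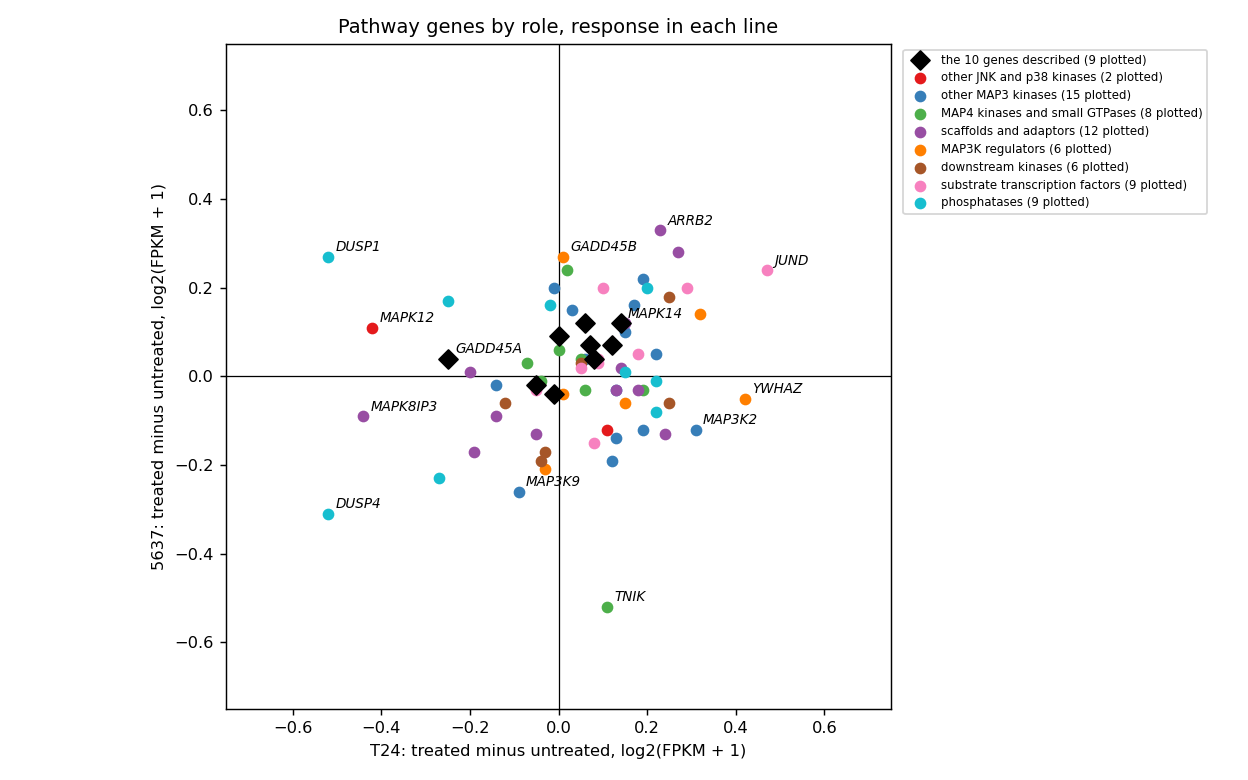
Treated minus untreated difference on the log2(FPKM + 1) scale in T24 (horizontal) and in 5637 (vertical) for the 76 pathway genes compared in both lines, coloured by role, with the members as black diamonds. The members lie near the origin apart from GADD45A, at -0.25 in T24, while DUSP1, DUSP4, MAPK12, MAPK8IP3, YWHAZ, JUND and TNIK lie farther out.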

How the data were processed

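RNA came from Qiagen columns and went into TruSeq RNA v2 libraries, read as 150-base pairs, per the labels' protocols. That kit enriches poly(A) RNA and keeps no strand information. The authors deposited gene-level FPKM for 4 libraries. The submitters' processing notes name Trimmomatic, HISAT2, StringTie and GRCh38, with versions, settings and annotation not given in the sources used here. Where transcripts overlap, StringTie estimates how reads are shared out.

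Values were analysed as log2(FPKM + 1), which understates differences of low genes, with pandas 2.3.3 in Python 3.11.15. Within-line differences have no replicate and no p-value. limma 3.58.1 (R 4.3.3) was fitted to all genes that reached 1 FPKM in 2 libraries or more, modelling cell line and treatment. It used a trended prior variance and Benjamini-Hochberg adjustment over all genes. The fit was also run on simulated data, with treatment effects larger than those of the members and the same in both lines. That run cannot show whether effects as small as those of the members would be called. Exon overlap, coordinates and coding sequences came from GENCODE 29. The depth behind a value is the reads per kilobase implied by the spacing of the lowest FPKM values.

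The members and lists were chosen with earlier results of these data known. Beside the members, the text names, for each list, the gene with the largest treatment difference in each line and the largest line difference in untreated cells, and the 3 genes most like GADD45A. TXN and DUSP10 were named outside this rule, after their values were seen. The rule also does not cover MAPK10, GADD45G, the cell type markers or the genes that share sequence or exons. Alternatives covered the pseudocount, filter, scaling, prior and cell line term. The alternative without same-strand exon overlap was chosen after seeing the data.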

Additional observations from a re-analysis of the deposited data

Results flagged for a closer look

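None of the 10 member genes had treated minus untreated differences of opposite sign in the lines under every scaling. Among the other genes named for the largest difference of their list, 9 did. In each case the 1 treated library of T24 moved one way and the 1 treated library of 5637 the other. Most of these 9 were named for having the largest treatment difference of their list in 1 line. Genes named for other reasons, such as HDAC10, were not counted. The share of all genes with opposite signs was not computed, and 56.0% of all genes were above 0 in T24 and 61.5% in 5637. The difference between the lines was not tested. The T24 difference minus the 5637 difference, on the log2(FPKM + 1) scale, was 0.92 for CDKN1A (0.82 in T24, -0.10 in 5637) and -0.79 for DUSP1 (-0.52 in T24, 0.27 in 5637). It was 0.63 for TNIK, 0.47 for YWHAZ and 0.43 for MAP3K2. MAPK12 had -0.53 (-0.42 in T24, 0.11 in 5637), with exons shared with HDAC10. MAPK11, CAB39 and CDC42 had 0.22 each.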

How the results depend on the processing

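The direction of the median member difference, the 0 members at 2-fold in all 4 comparisons, the 0 members called for treatment and the 7 called between the lines held under each alternative run, with MAP2K6 as an eighth where no filter on low values was set. What varied was the background. In T24, 59 genes differed by 2-fold with treatment, against 156 with a pseudocount of 0.1, 17 with a pseudocount of 5, 34 with a filter at 5 FPKM, 110 scaled to a common sum and 15 without same-strand exon overlap. In 5637 there were 49, against 121, 10, 17, 85 and 14 in the same order. Between T24 and 5637, a pseudocount of 5 and a filter at 5 FPKM gave 1036 and 1677 genes in place of 2538 in treated cells, and 1056 and 1725 in place of 2606 in untreated cells. limma called 2 genes for treatment with a pseudocount of 0.1 and 2 without same-strand exon overlap, in place of 0, and 0 under the other alternatives; without a term for cell line, 9 genes had an unadjusted p below 0.05. The cause of these shifts was not tested. The limma adjusted p for the treatment effect of MAPK14 ranged from 0.588 to 0.762 and that for the line effect of GADD45A from 0.000196 to 0.0234. The fit with cell line as a term sets treated against untreated cells within each line, as a pair; no pairing by replicate number could be made, since the labels give none and each group has 1 library. With 1 residual degree of freedom, a treatment effect that differs between the lines cannot be told from noise.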
